A study of Mus musculus with 48 samples.

Results

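The major urinary protein (Mup) genes are a family of near-identical genes on mouse chromosome 4 whose transcripts are among the most abundant of the adult liver. The 10 genes Mup1, Mup3, Mup7, Mup10, Mup11, Mup13, Mup17, Mup19, Mup20 and Mup21 were taken by name from the count tables of a study of NAD-capped RNA, out of 55336 genes in all. The other 12 genes named Mup and a number were used beside them. The libraries came from ONE-seq. There, the nicotinamide part of the NAD cap of an RNA is exchanged for a biotin tag in an enzymatic reaction with ADPRC and HEEB. Tagged RNA is then bound to streptavidin beads and released with NudC, an enzyme that cleaves the NAD cap. Each library of released RNA (Enrich) stood beside a library of the same tagged RNA before the beads (Input), and both were polyA selected.

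All livers were of C57BL/6 mice with no genetic change given. In the age experiment, 4 livers of 2-month-old mice (Young) and 4 of 18-month-old mice (Old) each gave an Input and an Enrich library, 16 in all. In the NudC experiment, RNA of livers of 12-month-old mice was released with NudC (NudC+) or mock treated (NudC-), with 2 Input and 2 Enrich libraries per arm, 8 in all. In the spike-in experiment, RNA of 18-month livers was mixed with a synthetic RNA of which 0%, 1%, 5% or 10% carried the NAD cap, with 3 Input and 3 Enrich libraries per mixture, 24 in all. All 4 spike-in mixtures were released with NudC. The rest of the spike-in RNA carried the m7G cap. The labels do not say whether livers were shared between mixtures, arms or experiments. Libraries held 9149931 to 14953661 counted read pairs in the age, 7242321 to 8725646 in the NudC and 3694383 to 10277863 in the spike-in experiment. The smallest level read as signal, 3 counts, came to between 0.201 and 0.328 cpm (counts scaled to the library total) in the age, 0.344 and 0.414 in the NudC and 0.292 and 0.812 in the spike-in libraries, and such floors cover counting error only. Hepatocyte markers were high in all groups (10 of 10 genes counted, 66274 to 124108 cpm in sum in the age Input libraries). The labels do not give the sex of the mice. The Y-linked gene Ddx3y was at 17.1 to 57.4 cpm in every Input library, and Xist, the RNA that coats the inactive X chromosome of females, had 0 to 71 counts.

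Major urinary proteins belong to the lipocalins, small secreted proteins that carry hydrophobic molecules in a barrel-shaped pocket. Hepatocytes secrete them into the blood, the kidney passes them into the urine, and there they bind and slowly release volatile pheromones and mark the owner's scent. Mup20, also named darcin, is itself a male pheromone. In the liver most of the genes are more active in males, and the pulses of growth hormone that signal through STAT5, together with thyroid hormone and glucocorticoids, are known to drive them.

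Because the copies resemble each other, the first question was how far a read can tell them apart. In the GENCODE M21 annotation (GRCm38), the 22 numbered Mup genes and 27 Mup pseudogenes lay on chr4:59956804-62150863, a stretch of 2.19 Mb, and no other annotated gene overlapped a numbered Mup gene. All 10 members were protein-coding and on the minus strand. Mup7 was at chr4:60066469-60070475, Mup1 at chr4:60498012-60501960 and Mup10 at chr4:60578260-60582199. Mup11 was at chr4:60658466-60662411, Mup13 at chr4:61224307-61228286 and Mup17 at chr4:61591929-61595871. Mup19 was at chr4:61778324-61782269, Mup20 at chr4:62050234-62054158, Mup3 at chr4:62083476-62087342 and Mup21 at chr4:62147932-62150863. Coding sequences of the members were 540 to 552 bases long. That of Mup7 was identical to those of Mup1, Mup10, Mup11, Mup13, Mup17 and Mup19 at 98.3% to 98.9% of positions, but to that of Mup20 at 90.1%, of Mup21 at 83.9% and of Mup3 at 82.6%. The stretch of 60 coding bases in which the members varied most (20 variable positions) shows this. It is printed from coding base 244 of Mup7 on, at chr4:60068902-60068961 of the minus strand, and at the matching place of the others; capitals mark bases that differ from Mup7.

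Mup7, and the same letters in Mup10, Mup17 and Mup19: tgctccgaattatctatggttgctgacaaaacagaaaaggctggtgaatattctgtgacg
Mup1, and the same letters in Mup11: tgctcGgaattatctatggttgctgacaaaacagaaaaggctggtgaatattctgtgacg
Mup13: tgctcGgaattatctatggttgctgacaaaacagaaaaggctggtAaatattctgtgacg
Mup20: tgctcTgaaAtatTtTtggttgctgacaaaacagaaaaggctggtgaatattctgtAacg
Mup3: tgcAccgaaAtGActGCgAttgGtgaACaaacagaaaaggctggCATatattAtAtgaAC
Mup21: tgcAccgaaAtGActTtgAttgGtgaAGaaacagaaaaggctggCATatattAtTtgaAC

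The 10 members held 6 distinct sequences in this stretch. Mup3 and Mup21 differed from Mup7 at 17 and 16 of the positions and Mup20 at 5. For whole transcripts, the share of 150-base windows found in no annotated transcript of another gene was 100% for Mup3 and Mup21 and 68.9% for Mup20, whose remaining windows were shared with the pseudogene Mup-ps19 alone. For the close copies it was 59.6% for Mup17, 47.5% for Mup1, 35.2% for Mup11, 32.9% for Mup7, 27.7% for Mup10, 22.2% for Mup13 and 0.765% for Mup19. The authors named no option for reads that map to several places, and their counter leaves such reads out by default. Levels of the close copies are therefore uncertain. Only annotated transcripts were searched, and a pair of reads can hold more sequence than 1 window.

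RefSeq promoter windows (GRCm38.p6, 250 bases before to 50 after the start) existed for 7 members. In 6 of them, the letters TATATAAGG, a TATA box sequence, began 2 to 31 bases before the RefSeq start. The members were searched on the strand of the gene, where the window of Mup7 did not hold the letters. In each of the 6 the GENCODE gene starts further upstream than the RefSeq one, so that the letters lie inside the gene as placed above. Of all 32851 windows, 101 (0.307%) held them on either strand, a wider search than that of the members. The 40 bases before and the motif, in capitals, are shown for these 6 genes. Of them, 5 fell with age in the Input and the sixth, Mup10, was hardly counted. Mup7, without the motif, fell as well (log2 fold change -5.67), as did Mup1 (-2.99) and Mup20 (-2.80), for which no window existed. A link between the motif and the fall was not tested.

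Mup3, chr4:62087320-62087368, minus strand: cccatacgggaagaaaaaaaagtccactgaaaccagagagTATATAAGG
Mup21, chr4:62150841-62150889, minus strand: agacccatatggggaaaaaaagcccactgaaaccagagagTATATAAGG
Mup11, chr4:60662389-60662437, minus strand: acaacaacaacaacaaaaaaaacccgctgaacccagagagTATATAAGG
Mup17, chr4:61595849-61595897, minus strand: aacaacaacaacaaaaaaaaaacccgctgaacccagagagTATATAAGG
Mup19, chr4:61782247-61782295, minus strand: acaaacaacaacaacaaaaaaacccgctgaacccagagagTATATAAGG
Mup10, chr4:60582177-60582225, minus strand: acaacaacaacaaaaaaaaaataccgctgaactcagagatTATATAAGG

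The Input libraries of the age experiment showed how much Mup RNA the livers held. Mup genes fell strongly from 2 to 18 months: 8 of the 9 members tested were lower in Old, between 5.63-fold (Mup19) and 54.5-fold (Mup11), and so were all 10 other Mup genes tested. Together the 22 genes took 2.11% to 2.22% of all counts in Young and 0.243% to 0.428% in Old. The ninth member, Mup13, had too few counts for a call, and Mup10 was not tested. Over all 15636 genes tested, 1872 (12.0%) were called lower and 1949 (12.5%) higher, by edgeR's quasi-likelihood test with Benjamini-Hochberg adjusted p under 0.05. With libraries scaled to their totals alone, 1005 were lower and 3480 higher (median of all genes 0.20), and the same number of members, 8, was lower.

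Mup3, the member with the most counts and one of the more diverged, had 115346, 107024, 120731 and 106838 counts in the 4 Young Input libraries and 22192, 40164, 19653 and 22255 in the 4 Old ones. Every Old library was below every Young one. Its log2 fold change was -2.57 (SE 0.19, edgeR adjusted p = 1.04e-09), a level 5.92-fold lower.

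Mup20, or darcin, was at 3183, 3684, 4232 and 3806 cpm in Young and at 481, 551, 428 and 686 cpm in Old. The groups lay apart, with the lowest Young library 4.64 times the highest Old one. The log2 fold change was -2.80 (SE 0.16, edgeR adjusted p = 2.76e-11).

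Mup7, a close copy, was counted about as often as Mup20 in Young, with 33776, 46460, 37873 and 46303 counts, but fell to 245, 3712, 349 and 349 counts in Old. Old replicate 2 stood far above the other Old livers and still 14.1 times below the lowest Young library in cpm. The log2 fold change was -5.67 (SE 0.79, edgeR adjusted p = 1.12e-05), and it was -7.39 without Old replicate 2.

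Mup11 showed the same pattern at a lower level. It had 1308, 2269, 2667 and 3906 counts in Young and 12, 187, 22 and 34 in Old, again with Old replicate 2 highest. Its log2 fold change was -5.77 (SE 0.59, edgeR adjusted p = 1.71e-07), and -7.15 without that replicate.

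Mup17 had 1249, 2199, 2438 and 3929 counts in Young and 83, 426, 132 and 83 in Old (log2 fold change -4.21, SE 0.47, edgeR adjusted p = 5.34e-07; -4.98 without Old replicate 2). Young replicate 4 was the highest and Young replicate 1 the lowest for both Mup11 and Mup17.

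Mup21, the diverged neighbour of Mup3, had 1720, 1280, 1804 and 2001 counts in Young and 217, 379, 159 and 215 in Old (log2 fold change -3.26, SE 0.20, edgeR adjusted p = 5.05e-11). Mup1 had 289 to 468 counts in Young and 34 to 140 in Old (log2 fold change -2.99, SE 0.36; -3.65 without Old replicate 2), and Mup19 610 to 795 and 83 to 346 (log2 fold change -2.49, SE 0.32). Old replicate 2 was the highest Old library for Mup1, Mup3, Mup7, Mup11, Mup17, Mup19 and Mup21, but not for Mup20, which was highest in Old replicate 4.

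Mup13 and Mup10 were near the floor of counting. Mup13 had 4, 3, 4 and 9 counts in Young and 0, 3, 1 and 3 in Old, with a log2 fold change of -1.85 (SE 0.76) that did not pass (edgeR adjusted p = 0.079). Mup10 had at most 1 count in a Young and 2 in an Old Input library, and at most 3 in any of the 48 libraries.

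In Input, the 4 Old libraries lay below all 4 Young ones for 9 of the 10 members, Mup10 being the exception, as for 2276 of all 15636 genes (14.6%). Ranked from the gene most lowered, Mup11 and Mup7 were 10th and 11th of all genes tested, Mup17 was 29th, Mup21 60th, Mup1 81st, Mup20 102nd, Mup3 123rd and Mup19 135th. Of the other Mup genes with 50 or more counts on average over the 24 Input libraries, Mup14 (log2 fold change -5.19), Mup15 (-5.06) and Mup16 (-3.77) were near the top as well, while Mup22 (-1.81) and Mup12 (-1.71) fell by less.

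**Figure D1:**
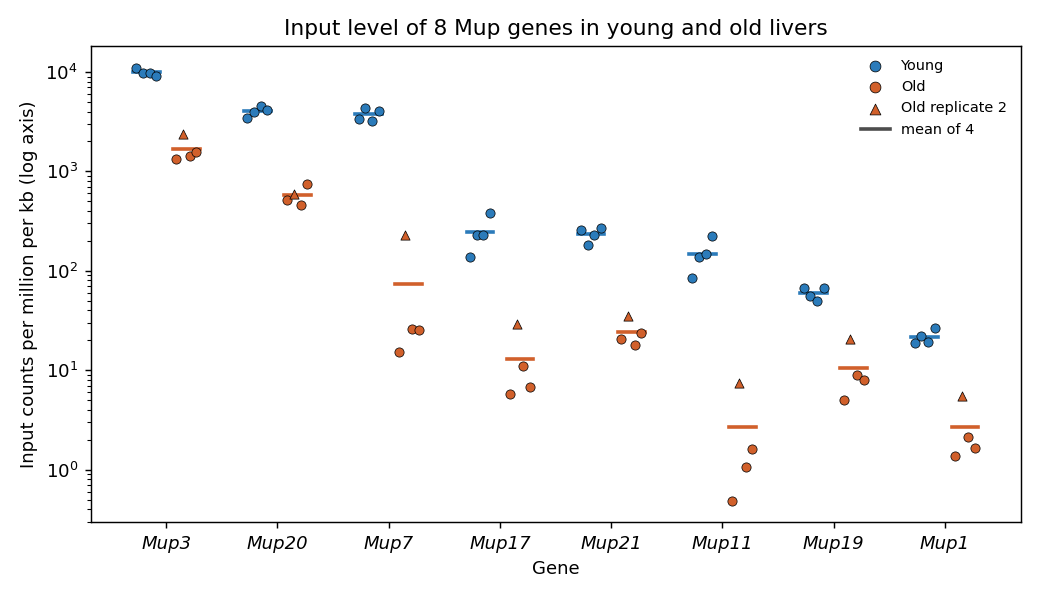
Input level of the 8 members with more than a few counts, in cpm per kb of annotated exon on a log axis. Each point is a liver, bars are means of 4, and the triangle is Old replicate 2; every Old point lies below every Young point of its gene, and the gap is widest for Mup7 and Mup11.

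The order of the levels was compared per kb of annotated exon, since the genes differ in length. Levels were not corrected for windows shared with other genes. Own windows of 150 bases were 100% in Mup3, 68.9% in Mup20, 32.9% in Mup7 and 0.765% in Mup19. The order and the shares of the family's counts therefore describe counted pairs, and the order of the RNA itself may differ. In Young it ran from Mup3 (9092 to 11066 cpm per kb) over Mup20 (4015 ± 465 cpm per kb, SD, n = 4) and Mup7 (3741 ± 558) to Mup17 (245 ± 103), Mup21 (236 ± 38.7), Mup11 (149 ± 57.7), Mup19 (60.3 ± 8.67) and Mup1 (21.7 ± 3.76). Mup20 and Mup7 did not differ beyond their spread in this order, nor did Mup17, Mup21 and Mup11. In Old, Mup3 (1675 ± 476) and Mup20 (578 ± 120) stayed first and second, while Mup7 came to 73.4 ± 102, with 1 liver carrying most of that mean. Mup21 (24.5 ± 7.62), Mup17 (13.1 ± 10.8) and Mup19 (10.6 ± 6.81) followed, and did not differ beyond their spread, nor did Mup1 (2.69 ± 1.95) and Mup11 (2.67 ± 3.25). Mup7 made up 19.2% ± 2.60 of the family's counts in Young and 2.43% ± 2.77 in Old (SD, n = 4), whereas the share of Mup3 was 52.8% ± 4.85 in Young and 70.6% ± 2.39 in Old. In bulk liver, fewer cells with a transcript and less of it per cell cannot be told apart.

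Genes known to follow the same hormones moved in the same Input comparison. Of 20 male-biased liver genes, 19 were tested, 17 were lower and 1 higher in Old, with a median log2 fold change of -2.61 (all genes 0.01). Ugt2b38 (-8.87), a glucuronosyltransferase, Hsd3b5 (-7.73), a hydroxysteroid dehydrogenase, and Selenbp2 (-6.98) changed most. Of 20 female-biased genes, 13 were tested, 7 were higher and 2 lower (median 2.03), among them Cyp2b9 (9.98), a cytochrome P450, Hao2 (6.66), a hydroxyacid oxidase, and Acot3 (3.14), a thioesterase. These genes were tested with the same livers as the Mup genes and are not independent of them.

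Within growth hormone and STAT5 signalling, 6 of 11 genes tested were lower and 2 higher. The STAT5 targets Cish (-1.89) and Socs2 (-1.76) and the related feedback inhibitor Socs3 (-2.38) were called lower. Among 15 liver transcription factors, 6 were lower and 3 higher, and Onecut1 (-1.93) and Foxa3 (-1.19) were among the lower ones. Of the other lipocalin genes, 4 of 10 tested were lower and 3 higher, where 12.0% and 12.5% of all genes were. Orm3 (3.84) and Lcn2 (3.23), both raised in the acute phase response, were higher and Apom (-1.95) was lower. Of 24 other secreted liver proteins, 14 were lower and 10 did not pass (median -0.37), such as Serpina3k (-2.34), Ahsg (-1.41) and Apoa1 (-1.30).

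Other markers moved with age as well. All 15 clock genes differed, 10 lower and 5 higher, led by Dbp (-7.00), Npas2 (6.14) and Arntl (4.72). Dbp was at 152 to 181 cpm in Young and 0.772 to 1.88 cpm in Old Input libraries, so that the hour of dissection, which the sources used here do not give, cannot be told apart from age. Hepatocyte markers summed to 103761 to 124108 cpm in Young and 66274 to 76789 cpm in Old, with 6 of 10 genes called lower. Of the other cell types, 3 of 4 erythroid markers (29.5 to 70.0 cpm in sum in Young, 62.7 to 201 in Old), 3 of 7 stellate, 2 of 6 lymphocyte, 1 of 8 Kupffer cell and 1 of 3 tested adipocyte markers (at most 7.66 cpm in sum in Young and 79.2 in Old) were higher and the others did not pass. Further, 1 endothelial marker was higher and 1 lower of 6, 1 cholangiocyte marker higher and 2 lower of 5, and 1 of 2 tested pancreas markers lower. Of 4 sex-chromosome genes tested, Eif2s3y was lower (-0.67). The part of these differences in the Mup values was not tested.

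Enrichment asked another question, whether the Mup transcripts released from the beads were over- or under-represented against the Input of the same liver. Values per liver are differences of log2 cpm, Enrich minus Input, where 2 counts were added as a prior. In Young, Mup20 and Mup3 were higher in Enrich and Mup19 lower; over all 15636 genes, 4221 (27.0%) were called higher and 4259 (27.2%) lower. In Old, Mup20 alone of the members passed, with 4142 genes (26.5%) higher. No member reached the 2-fold level, log2 fold change of at least 1 with adjusted p under 0.05, that was used for a NAD-RNA at either age.

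Mup20 was above Input in each of the 8 livers. The log2 ratios were 0.83, 1.11, 0.62 and 0.84 in Young and 0.57, 0.45, 0.76 and 0.69 in Old, so that the ages overlapped. The fitted log2 fold change was 0.85 (SE 0.15, edgeR adjusted p = 5.46e-05) in Young and 0.62 (SE 0.15, edgeR adjusted p = 0.00146) in Old.

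Mup3 was above Input by 0.06, 1.10, 0.20 and 0.69 in Young and by 0.51, 0.04, 0.59 and 0.17 in Old. Its ratios spread widely around a mean of 0.51 ± 0.47 (SD, n = 4) in Young. The Young call (log2 fold change 0.55, SE 0.18, edgeR adjusted p = 0.0117) was lost without Young replicate 2 (0.32, adjusted p = 0.137) or Young replicate 4 (0.51, adjusted p = 0.0545). In Old the log2 fold change was 0.30 (SE 0.18, edgeR adjusted p = 0.165).

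Mup19 went the other way in all 8 livers, with log2 ratios of -1.24, -0.67, -0.85 and -0.67 in Young and -0.50, -0.82, -0.78 and -0.84 in Old. The log2 fold change was -0.85 (SE 0.30, edgeR adjusted p = 0.0216) in Young, a call lost without Young replicate 1 (-0.72) or 3 (-0.87) and by DESeq2 (-0.84, adjusted p = 0.0798), and -0.81 (SE 0.35, adjusted p = 0.0542) in Old. Of its 150-base windows, 0.765% are its own.

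Mup7 was below Input in each liver too, by -0.83, -0.41, -0.91 and -0.56 in Young and -0.60, -0.91, -0.14 and -0.19 in Old. The test without pairing did not pass at either age (edgeR adjusted p of 0.428 and 0.365), though in Young it did with only the groups compared in the fit (-0.65, adjusted p = 0.00589) and without Old replicate 2 (-0.64, adjusted p = 0.0203). Since Input and Enrich came from the same tagged RNA of a liver, the fit was repeated with the liver as a replicate block. In Young the block left Mup3 and Mup20 higher and Mup19 lower and added Mup7 as lower (log2 fold change -0.68, edgeR adjusted p = 8.25e-08), where 29.6% of all genes were called lower. In Old it called Mup3 (0.33), Mup20 (0.62) and Mup21 (0.36) higher, with 29.4% of genes higher, and Mup7 (-0.50) and Mup19 (-0.77) lower, with 30.7% lower. These shares of all genes are large, so a call in this assay was common among genes of any kind.

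The remaining members were not called without the block. Mup21 had log2 ratios from -0.04 to 0.61 in Young and 0.13 to 0.55 in Old. Mup11 ranged from -0.32 to 0.20 and -0.41 to 0.42, Mup17 from -0.48 to 0.29 and -0.73 to 0.26, and Mup1 from -0.44 to 0.06 and 0.04 to 0.34. Of these 4 members, the block called Mup21 in Old and no other, with edgeR adjusted p of 0.115 to 0.934 for the rest.

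**Figure D2:**
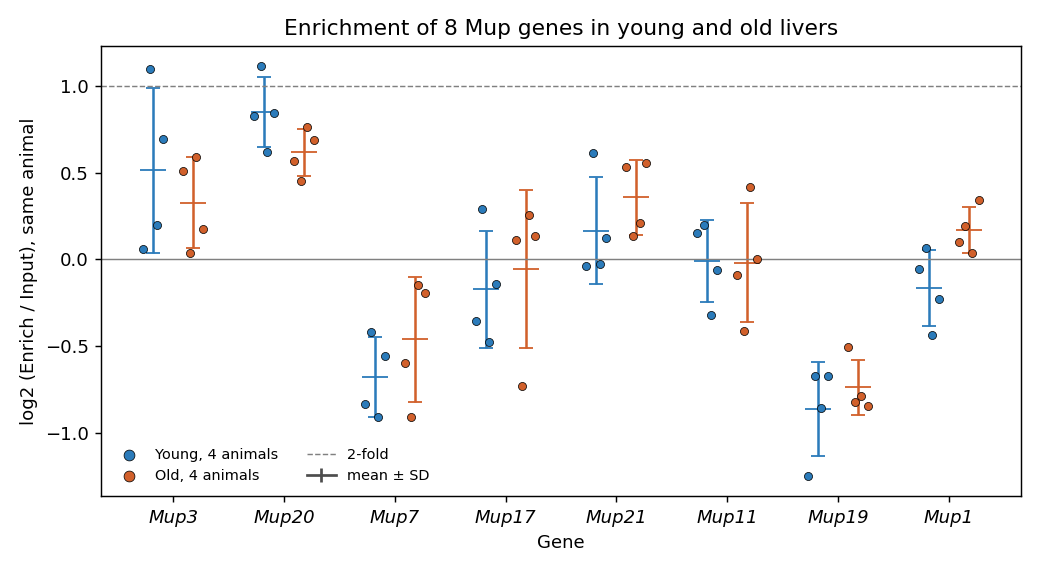
Enrichment of 8 members as log2 of Enrich over Input of the same liver; points are livers, crosses and bars are means with SD (n = 4), the solid line is no change and the dashed line 2-fold. Mup20 lies above and Mup7 and Mup19 lie below the solid line in all 8 livers, and the ages overlap for each gene shown.

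The difference in enrichment between the ages was tested as an interaction. No member was called, with log2 differences (Old minus Young) between -0.65 (Mup13, SE 1.16) and 0.29 (Mup1, SE 0.51). The difference was -0.23 for Mup20 (approximate 95% interval from the SE, -0.65 to 0.18), -0.25 for Mup3 (-0.75 to 0.24) and 0.19 for Mup21 (-0.32 to 0.69), and -0.10 for Mup7 with a wide interval of -1.91 to 1.70. Over all 15636 genes neither edgeR nor DESeq2 called any without the block. An unadjusted p under 0.05 was held by 588 genes in edgeR and 576 in DESeq2, none of them a member. With the liver as a block, no member was called either. Mup20 then had a log2 difference of -0.23 (SE 0.095, edgeR unadjusted p = 0.0214, adjusted p = 0.514), and Mup7 one of 0.18 (SE 0.13). Summed over the 22 Mup genes, the log2 ratio was 0.35 ± 0.33 in Young and 0.36 ± 0.25 in Old (SD, n = 4).

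Enrichment here is relative to the TMM scaling, which sets the bulk of genes near 0. With libraries scaled to their totals alone, the median of all genes moved to -0.38 in Young, -0.39 in Old and -0.50 in the spike-in libraries, and calls to 2480 higher and 6238 lower in Young, 2371 and 6425 in Old and 2397 and 7908 in the spike-in libraries. Mup20 was then still above Input in all 3 sets (0.46, 0.23 and 0.87) but no longer called in Old and no longer at 2-fold in the spike-in libraries, while Mup3 came to 0.16, -0.08 and 0.11 with no call. Mup19 was then also called lower in Old (-1.20, edgeR adjusted p = 0.00562) and in the spike-in libraries (-1.32, adjusted p = 0.00559), and Mup21 in the spike-in libraries (-0.42, adjusted p = 0.0472).

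Other liver transcripts in Young were enriched further. Of the other lipocalins, 7 of 10 tested were higher and 1 lower, with Ambp (2.40), Apom (2.18) and Orm2 (2.11) at log2 fold changes above those of all Mup members. Of the other secreted liver proteins, 10 of 24 were higher and 8 lower, led by Serpinc1 (2.05), the antithrombin gene.

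The spike-in libraries gave 12 further pairs of Enrich and Input from 18-month livers. The study's methods name 3 biological replicates of livers, and the labels do not say whether the mixtures shared them. The 12 pairs may therefore not be 12 separate livers, which the fits did not take into account. Mup20 was the only member to reach the 2-fold level, and Mup3 was called higher. Over all 14850 genes tested, 4705 (31.7%) were called higher and 1688 (11.4%) were NAD-RNA calls. Mup10 and Mup13 were not tested, with at most 3 and 4 counts in an Input library. Ratios were taken between libraries with the same replicate number.

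Mup20 was above Input in 12 of 12 pairs, with log2 ratios from 0.75 to 1.73 and a median of 1.30. The fitted log2 fold change was 1.33 (SE 0.12, edgeR adjusted p = 2.34e-09), a level 2.52-fold higher. By mixture, the ratios were 0.83, 1.48 and 1.73 at 0%, 1.22, 1.11 and 0.75 at 1%, 1.72, 1.69 and 1.65 at 5% and 1.27, 1.05 and 1.32 at 10% NAD-RNA. They did not rise or fall in step with the share of NAD-capped spike-in.

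Mup3 was above Input in 12 of 12 pairs as well, with log2 ratios from 0.29 to 0.85 (log2 fold change 0.57, SE 0.18, edgeR adjusted p = 0.00766; adjusted p = 0.0536 without replicate 3). Mup7 lay below Input in 12 of 12 pairs (-0.79 to -0.05) and Mup19 in 11 of 12 (-1.23 to 0.22), and neither passed (log2 fold changes -0.37, SE 0.70, and -0.86, SE 0.39, with edgeR adjusted p of 0.653 and 0.0544). Mup21 had 6 ratios above and 6 below Input (-0.54 to 0.63). With each pair of Input and Enrich as its own block, Mup7 (-0.41, edgeR adjusted p = 0.000253) and Mup19 (-0.88, adjusted p = 2.32e-05) were called lower, where 35.4% of all genes were. Mup17 (0.37, adjusted p = 0.00305) was called higher beside Mup3 (0.58) and Mup20 (1.32), with 31.1% of genes higher.

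**Figure D3:**
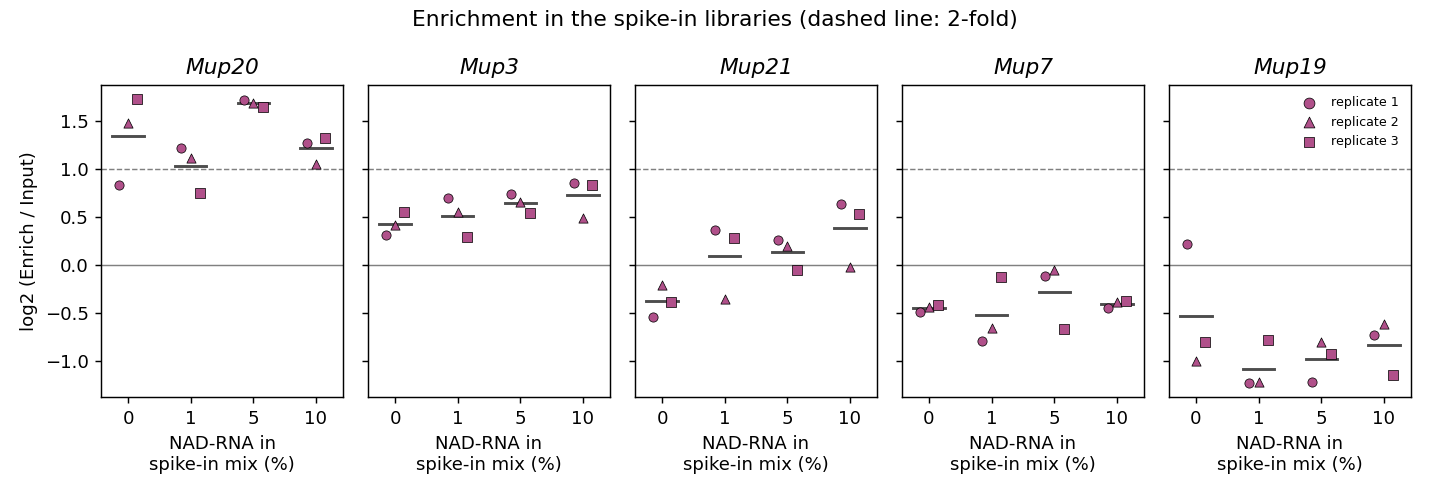
Enrichment of 5 members in the spike-in libraries, as log2 of Enrich over Input with the same replicate number, by the percentage of NAD-RNA in the spike-in; bars are means of 3 and the dashed line is 2-fold. Mup20 and Mup3 lie above 0 in all 12 pairs and Mup7 lies below 0 in all 12.

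Between the 4 mixtures the enrichment of no member differed, where 4 of all 14850 genes (0.0269%) did. Input levels of no member differed either (101 genes, 0.680%, did), with an unadjusted p = 0.0210 and an edgeR adjusted p = 0.757 for Mup20. The Input libraries of the mixtures were not alike in other genes. Nnt, which carries a deletion in some C57BL/6 substrains, had 99.1 to 119 cpm in the 1% and 10% mixtures and 0.348 to 1.11 cpm in the 0% and 5% mixtures, and Mup20 had 513 to 743 cpm in the first and 377 to 528 cpm in the second pair of mixtures. Whether these go together was not tested.

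Levels of the close copies depended on the replicate number in all 4 mixtures. Replicate 2 had 2055 to 2802 counts of Mup7 in Input against 136 to 342 in replicates 1 and 3, and 134 to 183 counts of Mup11 against 3 to 39. For Mup17 it was 290 to 417 against 78 to 173. In cpm, replicate 2 exceeded the next library by 8.38-fold for Mup7 at 0% and by 7.51-fold at 10%, but by 1.35-fold and 1.18-fold for Mup20. The same numbers in Old of the age experiment were close to these, with Mup7 at 15.8, 234 and 26.9 cpm in replicates 1 to 3 there and at 17.8, 236 and 28.1 cpm at 0% NAD-RNA here. Whether the same livers were used in both experiments is not given in the sources used here, so the 2 sets are not treated as independent.

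In the NudC experiment the question was whether release with NudC changed which RNA was recovered. The 2 replicates of each arm lay further apart than the arms did. Mup7 had 23183 and 255 Input counts in replicates 1 and 2 of NudC- and 21925 and 194 in those of NudC+, a gap of 111-fold and 145-fold in cpm. For Mup17 the counts were 4401 and 26 in NudC- and 4511 and 27 in NudC+, for Mup11 3278 and 49 and 3488 and 49.

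The diverged members differed less between the replicates. Mup3 had 57572 and 19569 counts in NudC- and 58156 and 20352 in NudC+, a gap of 3.58-fold and 3.66-fold in cpm. Mup20 had 11976 and 3103 and 12351 and 3406 counts (4.69-fold and 4.65-fold), and Mup21 400 and 128 and 345 and 120. Male-biased genes summed to 6413 cpm in replicate 1 and 1734 cpm in replicate 2 of NudC-, and female-biased genes to 64.5 and 315 cpm. Replicate 1 was thus on the side of Young (17159 to 26460 cpm of male-biased and 39.0 to 67.1 of female-biased genes), and replicate 2 on that of Old (1522 to 2511 and 227 to 446), though both were 12-month livers. Dbp was high in both replicates (206 to 272 cpm in Input) and Arntl low (1.09 to 1.78 cpm), as in Young.

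In the fit without pairing, no member was called in either arm, where 1755 of 17325 genes (10.1%) were higher in NudC- and 1479 (8.54%) in NudC+. No member had an unadjusted p under 0.05 either, and the SE of the log2 fold changes lay between 0.94 and 2.94. The log2 ratios within a replicate were much closer than the levels. For Mup3 they were 1.68 and 1.57 in NudC- and 1.24 and 1.15 in NudC+, for Mup20 1.86 and 1.54 and 1.49 and 0.94. Both genes were above Input in all 4 pairs, and their NudC- ratios were above their NudC+ ratios.

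With the replicate as a block, 8 of 9 members tested were higher in NudC-, all but Mup13, and 7 of 9 in NudC+, all but Mup11 and Mup13, where 19.8% and 20.1% of all genes were higher. The log2 fold changes in NudC- and NudC+ were 1.62 and 1.19 for Mup3, 1.70 and 1.22 for Mup20, 1.22 and 1.29 for Mup21, 1.04 and 0.93 for Mup7, and 1.56 and 0.82 for Mup1. For Mup19 they were 1.07 and 0.83, for Mup17 1.01 and 0.71, and for Mup11 0.39 and 0.04, the latter pair being -0.28 and -0.41 without the block when libraries were scaled to their totals alone (median of all genes -0.82 and -0.60). Mup7 and Mup19, which lay below Input in the age libraries, were above it here in all 4 pairs.

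The difference between the arms (NudC+ minus NudC-) was not called for any member. It came to -0.43 for Mup3 and -0.40 for Mup20 without pairing (95% intervals -3.01 to 2.14 and -3.61 to 2.80), and with the block to -0.43 (SE 0.13, edgeR adjusted p = 0.159) and -0.48 (SE 0.16, adjusted p = 0.246). Of the 9 members, 8 had a lower value in NudC+ with the block, Mup21 being the exception (0.07, SE 0.21). This tally is a description only. The members were measured in the same replicates, the close copies resemble each other, and Mup13 rests on few counts. The share of all genes with a lower value is not given. With 2 replicates per arm, the intervals without pairing leave room for differences of several fold. With the block, the SEs of Mup3 and Mup20 were smaller. Summed Mup counts had log2 ratios of 1.53 and 1.59 in NudC- and 1.14 and 1.16 in NudC+.

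**Figure D4:**
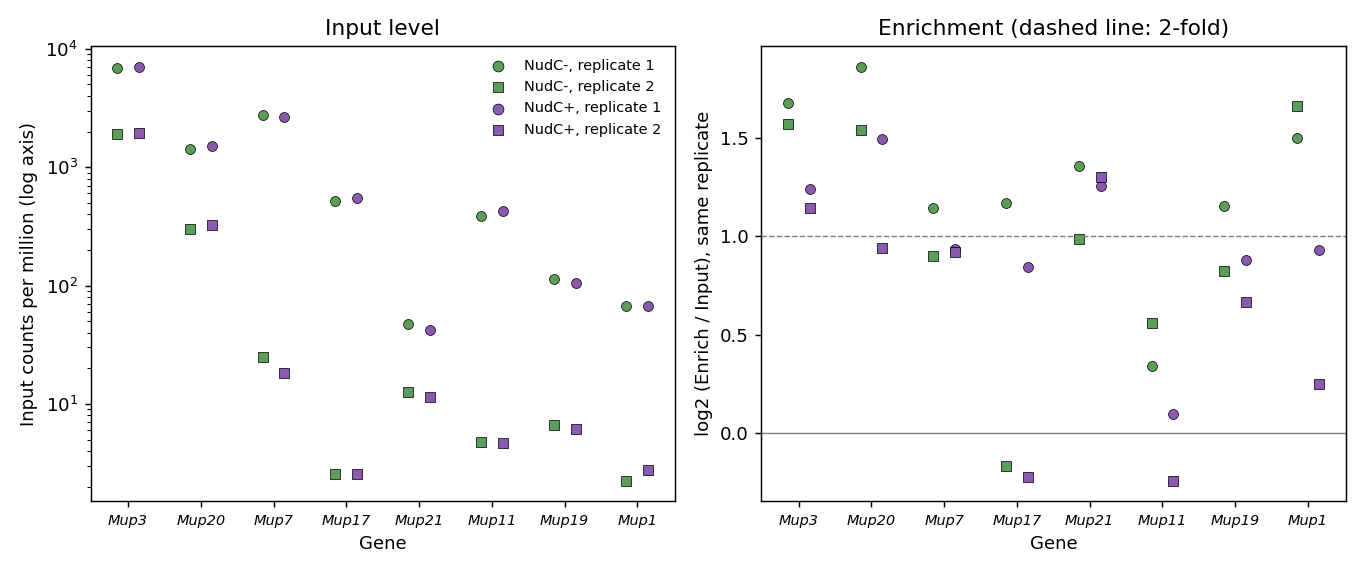
NudC experiment: Input cpm on a log axis (left) and log2 of Enrich over Input of the same replicate (right) for 8 members, by arm (colour) and replicate (shape). Input levels separate by replicate and hardly by arm, most for Mup7, Mup17 and Mup11, while the ratios of Mup3, for example, lie between 1.15 and 1.68 in all 4 pairs.

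The summed Mup counts, the male-biased and the female-biased genes were set side by side in the 24 Input libraries. Young libraries had the highest Mup share (2.11% to 2.22%), replicate 1 of the NudC experiment followed at 1.49% and 1.53%, and the 12 spike-in libraries lay between 0.210% and 0.534%. In the spike-in mixtures, replicate 2 had the highest Mup share and the highest male-biased sum in each mixture (2448 to 2701 cpm against 1517 to 1779 in replicates 1 and 3), and the lowest female-biased sum (245 to 262 cpm against 423 to 484).

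**Figure D5:**
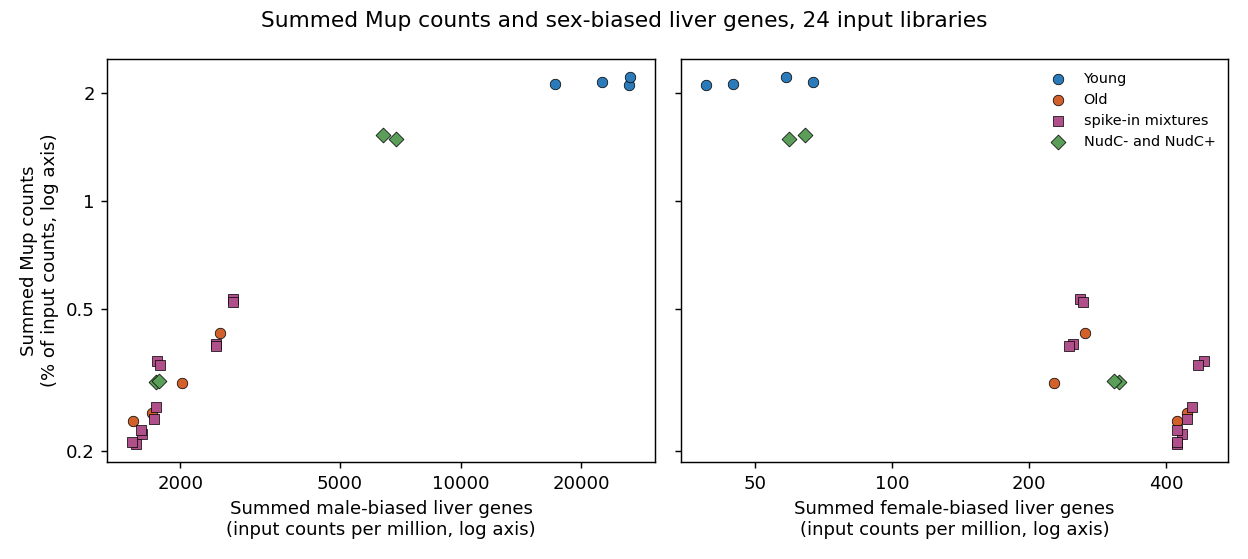
Summed counts of 22 Mup genes as percent of all counts against the summed level of 20 male-biased (left) and 20 female-biased (right) liver genes, all on log axes, one point for each of 24 Input libraries. Young libraries and replicate 1 of the NudC experiment lie at high Mup share with high male-biased and low female-biased sums, and all other libraries lie at the opposite side.

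Genes whose Input level varied most like the Mup sum within groups were searched over the 20 Input libraries of the age and spike-in experiments and 8707 genes with 50 or more Input counts on average, with each value taken as its deviation from the group mean. As a description, Slco1a1, an organic anion transporter, had the highest Pearson correlation (r = 0.958, Spearman's rho = 0.892), followed by Serpina3k (0.956), Elovl3 (0.955), a fatty acid elongase, Serpine2 (0.951) and C8b (0.948), a complement component. These points share libraries, and replicate 2 of the spike-in mixtures and of Old set much of the pattern. Over the 14 libraries without replicate 2, r was 0.761 for Slco1a1, 0.732 for Serpina3k, 0.763 for Elovl3, 0.743 for Serpine2 and 0.808 for C8b. The mixtures and Old may also share livers, so that the 20 and the 14 libraries may stand for fewer livers. With age, Slco1a1 (log2 fold change -5.60), Serpina3k (-2.34) and C8b (-2.88) fell in Input like the Mup genes, whereas Elovl3 (0.89, edgeR adjusted p = 0.0159) rose and Serpine2 (0.83, adjusted p = 0.0923) did not pass.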

How the data were processed

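ONE-seq libraries of mouse liver RNA were analysed from 3 tables of raw counts of read pairs per gene, 48 libraries in all. The authors trimmed reads with Trim Galore, aligned them to GRCm38 with STAR and counted pairs per Gencode gene with featureCounts before the counts were deposited. No option for pairs that map to several places is named. Counts were tested as deposited. A further 4 count columns could not be matched to a sample and were not used.

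A gene was tested if at most 25% of the libraries in its table had 0 counts for it. All groups of a table were fitted together with edgeR 4.0.16 (R 4.3.3) by its quasi-likelihood test with TMM scaling, and p-values were adjusted over all genes tested by the method of Benjamini and Hochberg. A gene was called at an adjusted p under 0.05, and called a NAD-RNA if also at least 2-fold higher in Enrich. SEs were taken from the fold change and its F value. The fits were tested on simulated data with known changes. Gene positions and transcripts came from GENCODE M21 (GRCm38), in which 181 identifiers of the age table were absent, and promoters from RefSeq. Python 3.11.15 was used for the rest.

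Groups came from the sample labels. The study's methods call the replicates of the age and spike-in experiments biological replicates of livers. For the NudC experiment nothing says whether replicates were separate animals, so its p-values measure only the spread between these samples. For Mup7 in Input that spread was 111-fold in NudC- and 145-fold in NudC+, and its source was not tested. No libraries of a group agreed within sampling noise. Input and Enrich with the same number came from the same tagged RNA by the study's methods. Their deviations from group means correlated in all 8 pairs of the age experiment (r 0.135 to 0.261). In the NudC experiment r was 0.496 in NudC- and 0.542 in NudC+. With 2 replicates per group the deviations mirror each other, so that both pairs of an arm hold the same value. The replicate block is given beside the results of both experiments. In the spike-in experiment 10 of 12 pairs passed 0.1. Ratios of libraries with the same number are given there as a description, and the replicate block beside the calls.

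The members, lists and rules were chosen with earlier results of these data known. All 10 members were described in each comparison; of other Mup genes, those with 50 or more Input counts on average were named, of each list up to 3 called genes with the largest change (1 such gene is not reported here), and the 5 genes most like the Mup sum. Alternatives were DESeq2 1.42.0, its size factors, scaling to library totals alone, other filters on low counts, the replicate block, fits of only the groups compared and leaving out replicates.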

Additional observations from a re-analysis of the deposited data

Results flagged for a closer look

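In the age experiment, 3 of 54 sets of 4 libraries or ratios had 1 sample far from the other 3, and chance alone flags about 1 in 20 such sets. Mup20 was at a log2 cpm of 10.11 (12016 counts) in Old Enrich replicate 4 and between 9.47 and 9.56 in the other 3. Mup17 had a log2 ratio of -0.73 in Old replicate 2, against 0.11 to 0.26 in the other Old livers. Mup19 had a log2 ratio of -0.50 in Old replicate 1, against -0.84 to -0.78.

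Mup13 was above Input in both NudC- pairs (mean log2 ratio 1.06) and below it in both NudC+ pairs (mean -1.06), a difference of -2.12 that rests on 0 to 12 counts per library. This opposite direction was not tested as such; the edgeR interaction was -3.76 with an adjusted p of 1.00.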

How the results depend on the processing

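The 8 members lower in Old Input stayed 8 under each of the alternatives run, and no member was called in the enrichment difference between ages or between arms under any. For single genes, 972 of 1117 recomputed log2 fold changes kept direction and call, 55 gained and 9 lost a call, and 81 turned direction, 65 of them on leaving out replicates. The cause of these changes was not tested.

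With library size alone, in the spike-in libraries Mup1 came to -0.42, Mup11 to -0.39, Mup17 to -0.064 and Mup21 to -0.42; in Young Mup21 to -0.24; in Old Mup1 to -0.24, Mup3 to -0.084, Mup13 to -0.31 and Mup21 to -0.041; Mup11 to -0.28 in NudC- and -0.41 in NudC+; and Mup21 to 0.12 for the difference between arms. The summed Mup log2 ratio was then -0.039 in Young, -0.026 in Old, 0.22, 0.11, 0.39 and 0.31 at 0%, 1%, 5% and 10%, 0.86 in NudC- and 0.60 in NudC+. The 10 members alone were 2.02% of Young Input counts, and with 100-base windows the median member had 35.0% of windows of its own.

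With no filter beyond 1 count, 5 members were called in the spike-in libraries, 4 in Old, 7 in NudC- and 7 in NudC+. The shares of all genes called are not given for this filter, the fit of only the groups compared or the leave-outs. Such counts are therefore not read as a result about the members. With the replicate block, 5 were called in the spike-in libraries, 5 in Old, 8 in NudC- and 7 in NudC+, and Mup1 in the spike-in libraries came to -0.018, Mup7 and Mup17 to 0.18 and 0.027 for Old minus Young, and Mup21 to 0.066 between arms. With only the groups compared in the fit, 1 member, Mup20, differed in Input between mixtures.

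Leaving out a replicate gave 1 to 3 called members in the spike-in libraries and 1 to 4 in Old (4 without Old replicate 2). Ranges that crossed 0 were, in the spike-in libraries, -0.022 to 0.083 (Mup1) and -0.020 to 0.14 (Mup21); in Young -0.093 to 0.050 (Mup11); in Old -0.39 to 0.14 (Mup11), -0.73 to 0.80 (Mup13) and -0.44 to 0.20 (Mup17); and for Old minus Young -0.17 to 0.38 (Mup7), -0.37 to 0.16 (Mup11), -1.43 to 0.10 (Mup13), -0.32 to 0.32 (Mup17) and -0.092 to 0.11 (Mup19). In the NudC experiment 1 library was left out at a time, and the lone library left was assumed to vary like the other groups. Ranges there were, in NudC-, -2.15 to 5.46 (Mup1), -4.87 to 6.94 (Mup7), -4.76 to 5.70 (Mup11), -6.85 to 7.85 (Mup17), -2.31 to 4.32 (Mup19) and -0.25 to 2.56 (Mup21); in NudC+, -3.39 to 4.57 (Mup1), -0.085 to 2.44 (Mup3), -5.26 to 7.13 (Mup7), -5.77 to 5.62 (Mup11), -6.98 to 7.58 (Mup17), -2.48 to 4.05 (Mup19) and -0.56 to 2.91 (Mup20); and between arms -5.01 to 3.14 (Mup1), -1.82 to 0.88 (Mup3), -6.50 to 5.99 (Mup7), -6.22 to 5.28 (Mup11), -8.25 to 7.76 (Mup17), -3.72 to 3.25 (Mup19), -2.46 to 1.42 (Mup20) and -1.29 to 1.57 (Mup21). Depth limits Mup10 and Mup13, with at most 3 and 13 counts in a library.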

Other observations

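Other Mup genes also departed from Input. With the replicate block, Mup22 was lower in Enrich in Young (-0.77) and Old (-0.59), as were Mup14 (-0.62 and -0.82) and Mup15 (-0.80 and -0.81). All 3 were higher in NudC- (2.25, 1.54 and 1.42) and in NudC+ (1.84, 1.03 and 1.02). Of all genes, 29.6% and 30.7% were lower in Young and Old, and 19.8% and 20.1% higher in NudC- and NudC+. Mup16 and Mup12 were lower in Young (-0.42 and -0.32) but not called in Old (0.21 and 0.08). In NudC- (1.19 and 1.94) and NudC+ (0.71 and 1.22) they were higher. In the spike-in libraries Mup16 (0.48) and Mup12 (0.46) were also higher, with 31.1% of genes higher. No 150-base window of Mup22 is its own. They are shared with 15 other genes, most of all Mup10, which holds 91.9% of them.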
